A study of Mus musculus with 12 samples.

Results

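The light chain genes of sorted mouse peritoneal B cells are described here, from bulk RNAseq of 12 libraries. The members were all genes whose symbol begins with Igkv or Iglv and a number, or is Igkc or Iglc with a number, and that had at least 10 counts summed over the 12 libraries. Of 152 genes with such a symbol in a table of 56941 genes, 103 were members: the kappa constant gene Igkc, 4 lambda constant genes (Iglc), 95 kappa V genes (Igkv) and 3 lambda V genes (Iglv). Of the other 49, 38 had no count in any library and 11 fell under the minimum. Igkv4.56 (11.3 counts) and Igkv13.82 (13 counts) were the members closest to the minimum, and Igkv17.134 (9.07 counts) and Igkv13.54.1 (9 counts) were the genes just below it. GENCODE annotates 82 of the 98 V members as genes and 16 as pseudogenes.

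Cells were sorted from the peritoneal cavity (PerC) of control and KI mice as B2 and as MemB, which gave 4 groups of 3 libraries that the labels call biological replicates. B2 were sorted as IgD+IgM+ and MemB as IgD-IgM-. KI mice are Cd21-Cre R26-LSL-Gpr34Q340X-IRES-GFP, in which Cre removes a stop cassette at Rosa26 so that a truncated, gain-of-function GPR34 is made together with GFP. Cd21-Cre acts in mature B cells and also in follicular dendritic cells, and not every B cell of a KI mouse expresses the allele. Ages, and which libraries came from the same mouse, were not used here. The RNA was amplified before sequencing, and the values are estimated read counts per gene.

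A B cell receptor pairs a heavy chain with a kappa or a lambda light chain, and a B cell usually makes only one kind of light chain. The V exon of a light chain is joined to a J segment by the RAG recombinase at recombination signal sequences (RSS), each a heptamer and a nonamer separated by a spacer, and the V promoter carries an octamer that Oct transcription factors bind. Most mouse B cells carry kappa chains. V usage in a sorted population reflects which cells are present as well as how much each transcribes, so fewer cells using a gene and less RNA per cell cannot be told apart in bulk libraries.

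The kappa genes lie on chromosome 6 and the lambda genes on chromosome 16 of GRCm39, the assembly named mm39. Igkc is a gene of 1 exon at chr6:70703419-70703950 on the + strand. The distances of the 95 Igkv members from the first kappa J segment ran from 18.4 to 3166.3 kb. The RSS shown first are those of the pair of V genes used most, the V gene that changed in KI MemB, and other V genes described below. Capitals mark the heptamer and the nonamer, and each RSS directly follows the V exon.
Igkv1.117: CACAGTGatacagaccctaACAAAAATA
Igkv1.110: CACAGTGatacagaccctaACAAAAATA
Igkv17.127: CACAGTGctatgtcctcttACAGAAACC
Igkv15.103: CACAGTGatataagtcatgACACAAACC
Igkv14.126: CACGTTGatacaagtaataACATAAACC
Igkv4.91: CACCGTGctacagactaaaACAAGAACC
Igkv1.122: CACAGTGatgcagaccctaACAAAAACA
Igkv3.7: CACAGTGctccagggctgaACAAAAACC

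Igkv1.117 and Igkv1.110 had the same RSS letter for letter, and their exons were 96.8% identical. The RSS of Igkv15.103 lies at chr6:68414910-68414937 (+ strand), and that of Igkv14.126 at chr6:67873627-67873654 (+ strand). Over the 95 Igkv members, 76 (80%) had the heptamer CACAGTG without a mismatch, 32 (33.7%) had the nonamer ACAAAAACC without one, and 30 (31.6%) had both. Of the genes above, Igkv3.7 had both, and Igkv14.126 differed from the heptamer at 2 bases. The lambda RSS have a longer spacer of 23 bases, against 12 in kappa, and those of Iglv1 and Iglv2 were the same.
Iglv1: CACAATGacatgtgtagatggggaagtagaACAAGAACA
Iglv2: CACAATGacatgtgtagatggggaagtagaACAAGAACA
Iglv3: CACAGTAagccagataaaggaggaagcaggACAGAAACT

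Promoters were read from 250 bases before to 50 bases after the annotated start, and were searched on both strands for the octamer, ATGCAAAT, whose reverse complement is ATTTGCAT. The octamer was in 72 of 98 V members (73.5%), and in 366 of 21770 protein-coding genes (1.68%) over windows of the same length. Its surroundings are shown, with the octamer in capitals, for a member of each locus and for the V genes whose levels are given in most detail.
Igkv15.103: ttcccctgctgATTTGCATgttaccagagc
Igkv14.126: ggttctcaatgATTTGCATgctctcacttc
Igkv17.127: tatttggtacaATTTGCATgcccccattac
Igkv3.7: ctgctgagctgATTTGCATatggagtcatt
Iglv1: aaatgaaagtaATTTGCATtactagcccag

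These letters were not found in the windows of Igkv1.117 and Igkv1.110, the most used V genes. Members with the octamer held 60.8% of Igkv counts on average, with a range over libraries from 46.6% to 68.2%, and the 26 Igkv members without it held the other 39.2%. The library with the least was KI MemB replicate 1, where Igkv1.117 was used most.

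The libraries held between 29895068 and 39732124 counts, of which light chain members took between 0.307% and 0.488%. V members had between 15595.7 and 27377.5 counts per library. Of the B cell markers, Ms4a1 had between 622 and 932 normalized CPM (counts scaled by TMM to the size of the library) and Cd79b between 413 and 670 over the 12 libraries. Pax5, another of the 5 B cell markers, had 470 to 709 CPM in B2 and 310 to 448 in MemB. Its cell types did not overlap, as was the case for 1.26% of all genes tested. Between MemB and B2, edgeR called 0 of the 5, and 1 had an unadjusted p below 0.05, against 12.9% of all genes. Of the B2 markers, Ighd and Ighm were called lower in MemB than in B2 with log2 fold changes of -3.35 and -1.81 (adjusted p = 7.29e-18 and 2.78e-12, edgeR), and Fcer2a and Cr2 with -1.77 and -1.23. The sort was by IgD and IgM, so the calls of Ighd and Ighm are not independent of it. Of the 10 kappa and lambda J segments in the table, none had a count, so joins between V and J were not measured.

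Kappa transcripts outnumbered lambda transcripts in every library. The ratio of Igkc counts to the summed counts of the 4 Iglc genes was 1.23, 2.05 and 1.64 in control B2 replicates 1 to 3, and 2.24, 2.22 and 1.67 in KI B2. It was 1.41, 1.51 and 1.66 in control MemB, and 2.92, 2.07 and 2.44 in KI MemB. KI MemB thus had the highest mean, 2.47 ± 0.425 (SD, n = 3), and control MemB the lowest, 1.53 ± 0.128 (SD, n = 3), and these groups did not overlap. On the log2 scale the difference between KI and control MemB was 0.68, with a two-sided exact permutation p = 0.1, which is the smallest that 3 libraries against 3 allow. With Iglc1 as the only lambda gene in the ratio, the MemB groups overlapped and the difference was 0.21 (two-sided exact permutation p = 0.5). In B2 the groups overlapped, with a difference of 0.34 (two-sided exact permutation p = 0.2), which was 0.15 without control B2 replicate 1. No test compared the genotype difference in MemB with that in B2. MemB and B2 libraries overlapped, with a difference of 0.10 and a two-sided exact permutation p = 0.636 for 6 libraries against 6. The sign turned without KI MemB replicate 1 (-0.02) and without control B2 replicate 1 (-0.01). Per length of exon, the ratio ran from 1.14 to 2.72 over the libraries.

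**Figure D1:**
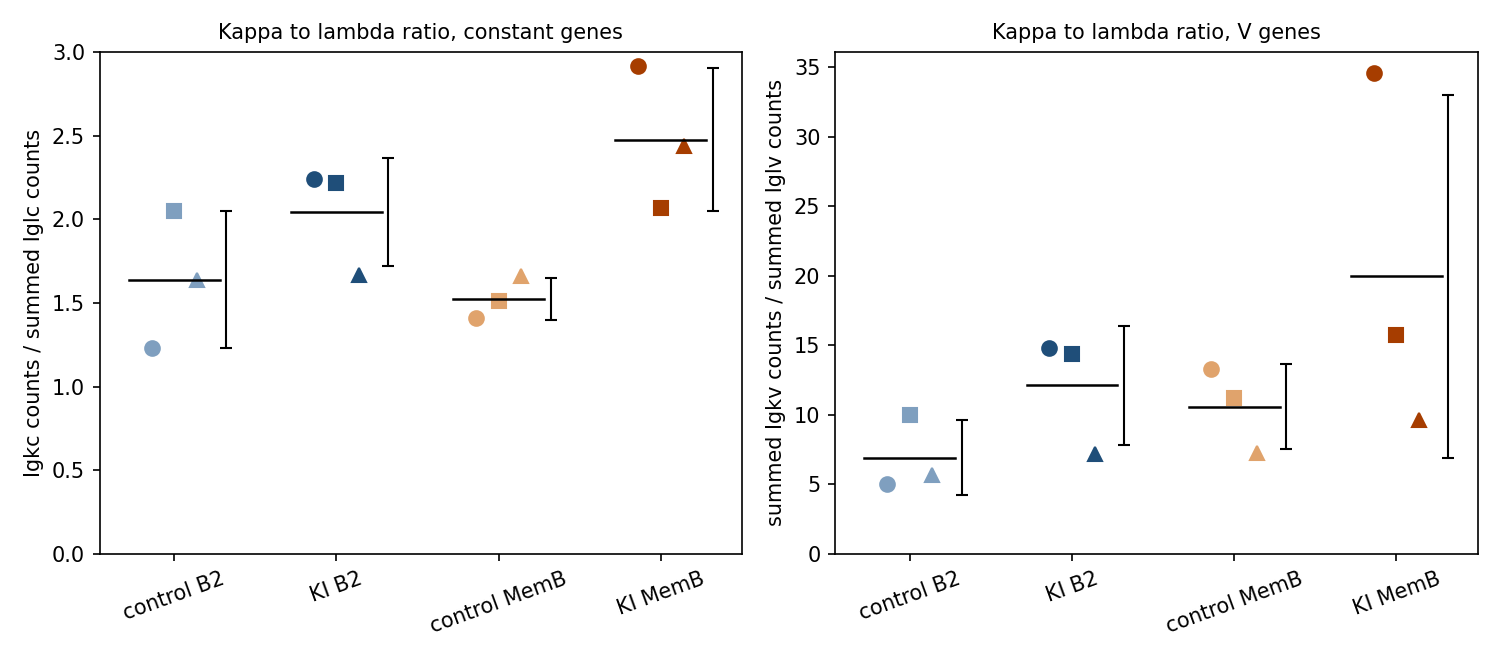
Ratio of kappa to lambda counts in each library, from constant genes on the left and from V genes on the right (vertical axes, linear, no unit). Points are libraries (circle, square and triangle for replicates 1, 2 and 3), horizontal lines are group means and bars are the SD. From constant genes, the KI MemB libraries lie at 2.07 and above and the control MemB libraries at 1.66 and below.

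The ratio of summed Igkv to summed Iglv counts was higher throughout and more spread. In replicates 1 to 3 it was 13.3, 11.2 and 7.25 in control MemB and 34.6, 15.7 and 9.59 in KI MemB. These groups overlapped, and KI MemB replicate 1 was the highest of the 12 libraries. Control B2 had 5.02, 10 and 5.69, and KI B2 had 14.8, 14.4 and 7.19. Lambda genes accordingly made up 25.5% to 44.7% of constant region counts but 2.81% to 16.6% of V counts.

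The constant gene was counted more often than the V genes of its locus, to a degree that differed between the loci. Per length of exon, the level of Igkc was 2.22 to 2.71 times that of the summed Igkv genes over the 12 libraries. The level of the summed Iglc genes was 8.72 to 31.9 times that of the summed Iglv genes. The kappa figure was therefore nearly the same in all libraries, while the lambda figure spread from its lowest in control B2 replicate 3 to its highest in KI MemB replicate 1.

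Igkc itself, which encodes the kappa constant domain, had 1870, 1890 and 2140 CPM in control MemB and 3150, 1810 and 2830 in KI MemB. KI MemB replicate 2 lay below all control libraries, so the groups overlapped, and the log2 fold change of 0.40 did not pass the test (standard error 0.16, adjusted p = 0.354, edgeR). It was 0.24 without KI MemB replicate 1 (adjusted p = 0.635, edgeR) and 0.60 without KI MemB replicate 2 (adjusted p = 0.0809). In B2, Igkc had 1850, 1890 and 2100 CPM in control and 1790, 1670 and 1900 in KI, with overlap (log2 fold change -0.12, adjusted p = 0.999, edgeR). The difference of 0.28 on the log2 scale between MemB and B2 did not pass the test for Igkc (adjusted p = 0.252, edgeR).

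Of the lambda constant genes, Iglc2 was the one whose KI libraries lay below all control libraries in both cell types. It had 463, 548 and 475 CPM in control MemB and 356, 270 and 329 in KI MemB. In B2 it had 462, 380 and 512 CPM in control and 312, 233 and 377 in KI. Neither log2 fold change passed the test (-0.64 in MemB, adjusted p = 0.281, and -0.55 in B2, adjusted p = 0.838, edgeR). Iglc3 had 556, 498 and 565 CPM in control MemB and 420, 404 and 488 in KI MemB, without overlap (log2 fold change -0.30, adjusted p = 0.622, edgeR). Iglc2 and Iglc3 were 95.4% identical over 452 aligned bases, and how RSEM shares reads between them bears on both values. Iglc1, which was 72.4% identical to Iglc2, had 306, 201 and 246 CPM in control MemB and 302, 199 and 342 in KI MemB, with a log2 fold change of 0.16 (adjusted p = 0.904, edgeR). Iglc4 had only 2 to 110 counts per library.

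The makeup of the lambda V genes varied from library to library. Iglv1 and Iglv2, whose exons were 97.0% identical, took 27.2% to 88.3% and 2.43% to 65.4% of Iglv counts, and Iglv3 took 4.23% to 48.4%. Iglv2 had 25.9, 28.3 and 21.1 CPM in control MemB and 7.64, 13.6 and 2.05 in KI MemB. The groups did not overlap, and the log2 fold change of -1.69 did not pass the test (standard error 0.75, adjusted p = 0.394, edgeR). Iglv1 reached 100 CPM in control B2 replicate 3, against 8.57 to 45.7 in the other libraries. Iglv3 had 40.7 CPM in KI MemB replicate 3 and 2.19 to 20.9 in the rest.

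Kappa V usage was broad and led by the Igkv1 family. V usage is given as the share of all light chain V counts of a library. Of the 98 V members, 61 had a count in all 12 libraries, 25 had a mean share of 1% or more, and 27 had a mean share under 0.1%. The 10 Igkv genes with the highest mean share were Igkv1.117, Igkv1.110, Igkv17.127, Igkv1.135, Igkv10.96, Igkv15.103, Igkv2.109, Igkv12.44, Igkv16.104 and Igkv8.24, and together they held 50.5% on average (41.3% to 63.1%). The 8 members of the Igkv1 family held 27.6%, and the 27 members of the Igkv4 family, the largest, held 7.92%. The 16 pseudogenes held at most 1.42% in any library.

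**Figure D2:**
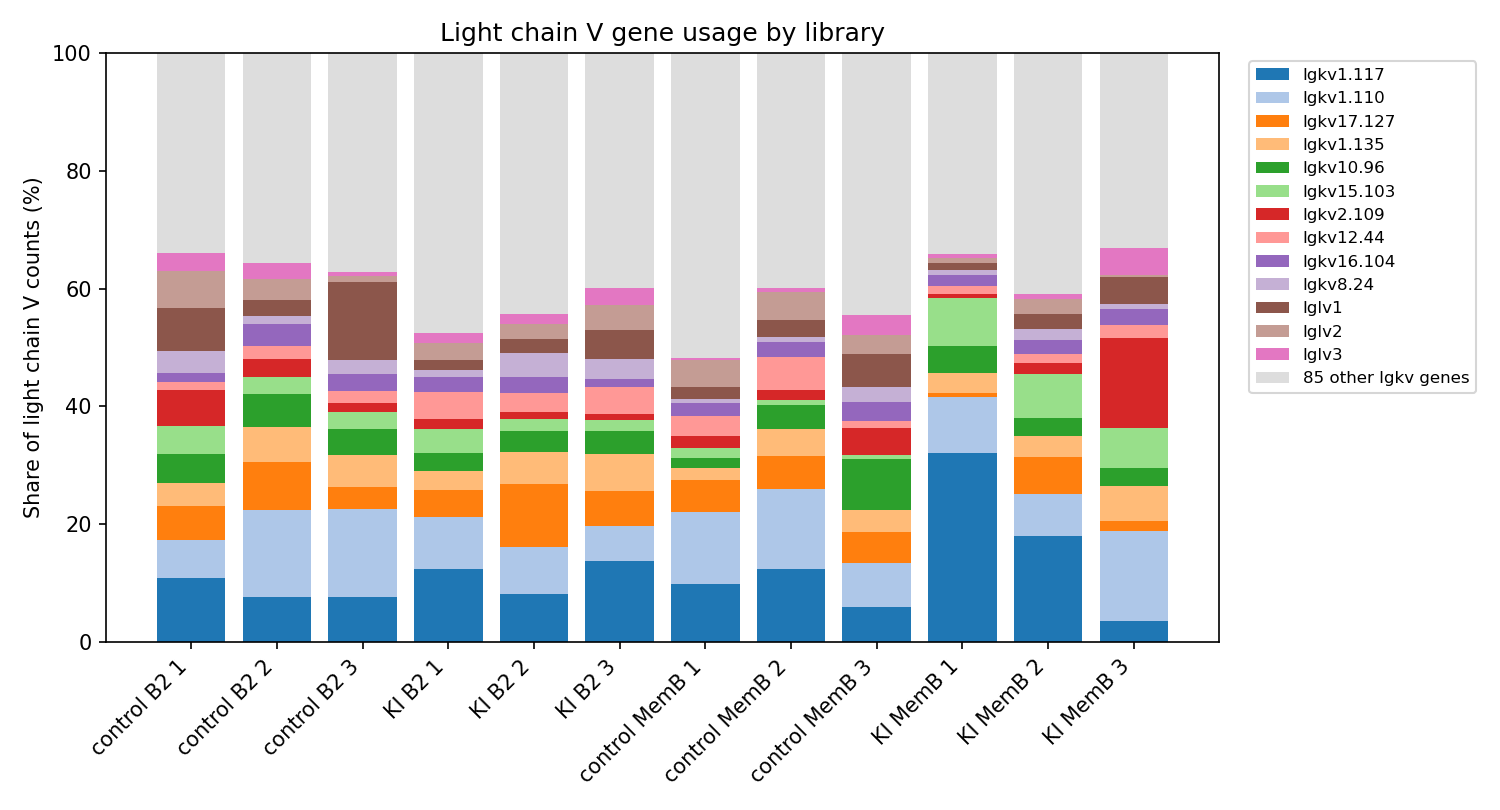
Share of light chain V counts (vertical axis, %) taken in each of the 12 libraries by the 10 leading Igkv genes, the 3 Iglv genes and the other 85 Igkv genes together. Igkv1.117 takes 32.1% in KI MemB replicate 1, and Igkv15.103 takes 6.73% or more in each KI MemB library and 1.69% or less in each control MemB library.

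Igkv1.117 had a mean share of 8.68% ± 1.81 (SD, n = 3) in control B2, 11.4% ± 2.90 in KI B2 and 9.37% ± 3.29 in control MemB. In KI MemB its shares were 32.1%, 18.0% and 3.61%, so that it was the leading gene in replicates 1 and 2 and a minor one in replicate 3. Its log2 fold change in CPM between KI and control MemB was 1.35 (standard error 0.50, adjusted p = 0.333, edgeR). In KI MemB replicate 3, Igkv1.110 and Igkv2.109 each took 15.3%. Igkv2.109 took 0.678% and 1.74% in KI MemB replicates 1 and 2, and its log2 fold change was 1.59 (adjusted p = 0.468, edgeR). Igkv1.110 had shares from 5.94% to 15.3% over all libraries.

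Among the other leading genes, Igkv17.127 had 5.42%, 5.68% and 5.28% of V counts in control MemB and 0.581%, 6.30% and 1.63% in KI MemB. Igkv17.127 was 98.0% identical to Igkv17.121. Igkv10.96 had 4.51% to 5.61% in control B2 and 2.93% to 3.91% in KI B2. Igkv12.44 went the other way, with 1.34% to 2.25% in control B2 and 3.25% to 4.58% in KI B2. Both pairs of groups were free of overlap, and neither gene passed the test in B2 (log2 fold changes in CPM of -0.74 and 0.94, adjusted p = 0.975 and 0.953, edgeR). Igkv1.135 had mean shares of 3.43% to 5.02% in the 4 groups, Igkv16.104 of 2.18% to 2.75%, and Igkv8.24 of 1.19% to 2.84%. None of these 3 passed the test in any comparison.

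Diversity of V usage was measured as the effective number of V genes, the exponential of the Shannon entropy of the shares, which is the number of equally used genes that would give the same entropy. It was 33.5, 31.6 and 26.7 in control B2 and 37.5, 36.8 and 34.8 in KI B2. It was 33.7, 29.8 and 39.2 in control MemB and 19.4, 31.6 and 23.5 in KI MemB. KI B2 libraries all lay above control B2, by 5.80 on average, and a two-sided exact permutation p = 0.1 is the smallest possible. In MemB the direction of the means was opposite, at -9.45, and the groups overlapped (two-sided exact permutation p = 0.2). Without Igkv1.117, the gene with the highest mean share, the MemB difference was -4.48 (two-sided exact permutation p = 0.4) and the B2 difference 8.09 (0.1). By the inverse Simpson index, which gives the most used genes more weight, it was in MemB that the groups did not overlap, with 7.77 to 17.1 in KI and 18.3 to 27.4 in control (two-sided exact permutation p = 0.1). By that index KI B2, at 21.7 to 23.8, overlapped control B2, at 15.9 to 22.3 (two-sided exact permutation p = 0.2). In the effective number, MemB and B2 differed by -3.97 (two-sided exact permutation p = 0.262), and by -1.94 without KI MemB replicate 1. The difference of 5.80 between KI and control B2 was 3.85 without control B2 replicate 3. The number of genes needed to reach 50% of V counts was 4, 8 and 6 in KI MemB and 6 to 10 in the other libraries.

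**Figure D3:**
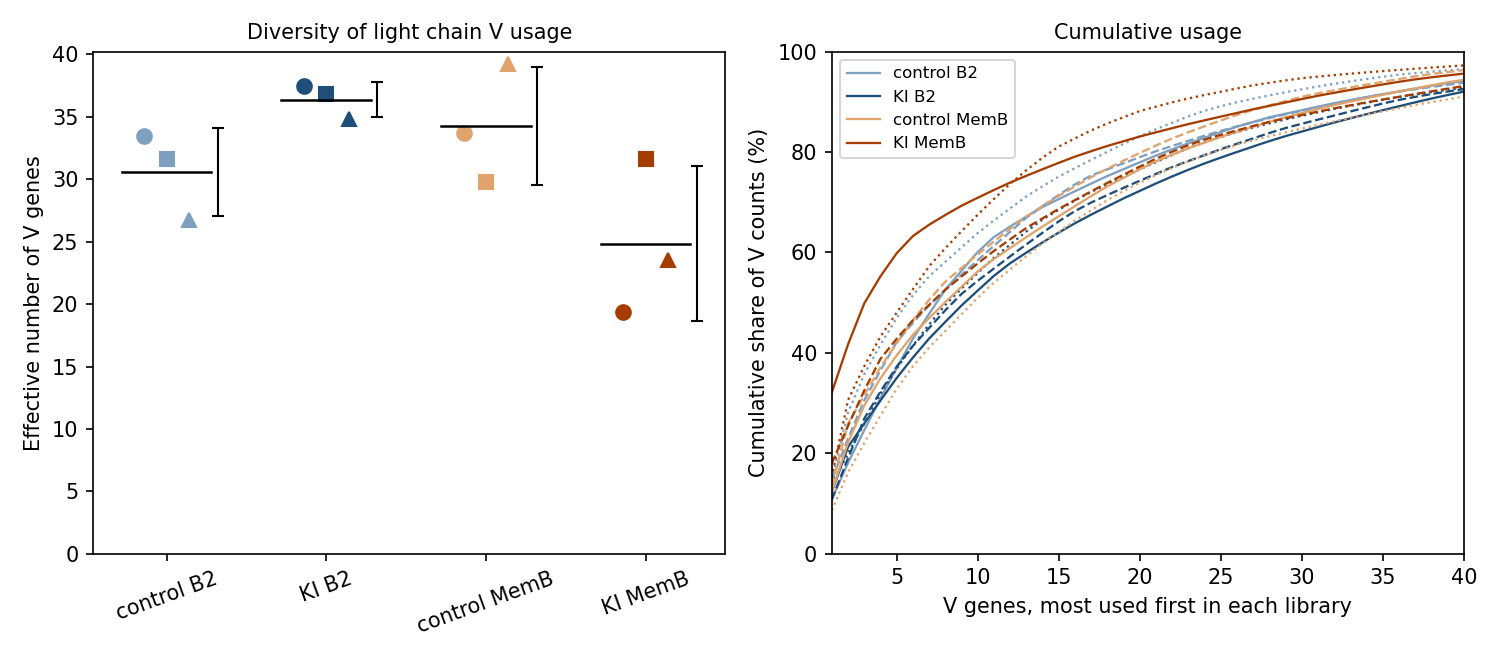
Left, effective number of light chain V genes in each library (points; circle, square and triangle for replicates 1, 2 and 3), with group means (lines) and SD (bars). Right, cumulative share of V counts (%) against the number of V genes, most used first, with solid, dashed and dotted lines for replicates 1, 2 and 3. KI MemB replicate 1 has the lowest effective number, 19.4, and the steepest start of the curve.

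A single light chain gene changed between KI and control MemB by edgeR's test across all 15148 genes: Igkv15.103 was higher in KI MemB. That is 1 of the 82 members with enough counts to be tested, where 0.284% of all genes tested were called and 0.0792% were called higher. The other 21 members had too few counts. Genes were called when the adjusted p was below 0.05 and the fold change was more than 1 on the log2 scale in either direction. At an unadjusted p below 0.05 there were 12 of 82 members (14.6%), against 11.1% of all genes. The median log2 fold change was 0.03 over the members tested and -0.03 over all genes.

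Igkv15.103 (chr6:68414424-68414909, + strand, 2 exons) had 9.60, 5.69 and 4.71 CPM in control MemB and 75.6, 39.1 and 60 in KI MemB. It had 30.3, 17.1 and 21.9 CPM in control B2 and 20.3, 11.5 and 11.5 in KI B2. Every KI MemB library thus lay above all the other 9, every control MemB library lay below all of B2, and control and KI B2 overlapped. Between KI and control MemB this was a log2 fold change of 3.13 (standard error 0.63, edgeR adjusted p = 0.0165). The corresponding value for B2 was -0.68 (standard error 0.58, adjusted p = 0.979, edgeR), and the difference between these effects, 3.80, did not pass the interaction test (standard error 0.85, adjusted p = 0.0907, edgeR).

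As a share of V counts, Igkv15.103 took 1.69%, 0.972% and 0.742% in control MemB and 8.17%, 7.46% and 6.73% in KI MemB. The shares in KI MemB were alike, at 7.45% ± 0.719 (SD, n = 3), although the leading gene of these libraries was not the same. Its nearest relative among the members, Igkv14.126, was 77.5% identical. Leaving out 1 library moved its log2 fold change between 2.90 and 3.49, and the call was lost in 4 of the 12 such fits: without control MemB replicate 2 (adjusted p = 0.09, edgeR) or 3 (0.0786), and without KI MemB replicate 1 (0.138) or 3 (0.0586).

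Igha and Jchain were higher, and Ighm and Ighd lower, in the same KI MemB libraries. Igha, the IgA constant gene, had 352, 632 and 1080 CPM in control MemB and 4290, 2350 and 4740 in KI MemB (log2 fold change 2.47, adjusted p = 0.0294, edgeR). With 1 library left out, the call of Igha was lost in 8 of 12 fits, each leaving out 1 of the 6 B2 libraries, control MemB replicate 2 or KI MemB replicate 1, with an adjusted p of up to 0.201. Jchain, which links IgA and IgM monomers, had 6.71, 5.57 and 18.0 CPM in control MemB and 152, 72.1 and 196 in KI MemB (log2 fold change 3.80, adjusted p = 0.00495, edgeR), a call that was lost without KI MemB replicate 3 (0.0505). The 7 plasma cell markers summed to 142 to 266 CPM in control MemB and 233 to 356 in KI MemB, and 1 of the 7, Jchain, was called. Sdc1, which marks plasma cells, had 14.4 CPM in KI MemB replicate 1 and at most 2.12 in the other libraries, and Derl3 had 30 CPM there and at most 10.4 elsewhere. Tnfrsf17 had 10.3 CPM in that library, 5.06 in KI MemB replicate 2 and at most 0.881 elsewhere. Xbp1 and Prdm1 did not peak in KI MemB replicate 1 (47 and 3.44 CPM, against up to 105 and 17.5 in control MemB). Mzb1 had 99.5, 146 and 117 CPM in control MemB and 98.4, 57.2 and 72.8 in KI MemB, lower without overlap and not called. KI MemB replicate 1 also had the highest share of Igkv1.117, the highest kappa to lambda ratio and the lowest effective number of V genes. Markers of T and NK cells summed to 100 to 151 CPM in control MemB and 2.22 to 50.6 in KI MemB, and 1 of the 8 tested, Nkg7, was called lower (log2 fold change -6.47, adjusted p = 0.0374, edgeR). Of these 8, 6 had an unadjusted p below 0.05, against 11.1% of all genes. DESeq2 called 5, and the median log2 fold change of the 8 was -3.97. Mast cell markers summed to 1.53 to 241 CPM in control MemB and 0.782 to 1.77 in KI MemB, and 1 of the 3 tested, Cma1, was called lower (log2 fold change -6.40, adjusted p = 0.0374, edgeR), although its libraries overlapped, and DESeq2 called 2 of the 3. In B2 the mast cell markers summed to 0.805 to 1.75 CPM in control and 1.15 to 74.9 in KI, where KI B2 replicate 3 had 15.8 CPM of Cma1 and each other B2 library at most 0.92. The 3 tested had an unadjusted p below 0.05 in B2, against 5.74% of all genes, and edgeR and DESeq2 called 0. The 8 macrophage markers summed to 4.75 to 24.9 CPM in B2, 11.4 to 24.7 in control MemB and 1.38 to 12.8 in KI MemB, and Gata6 and C1qa were at 0 in all libraries. Of the 3 macrophage markers tested between KI and control MemB, edgeR called 0, 1 had an unadjusted p below 0.05 and DESeq2 called 1. The part of these cells in the light chain values was not tested. Ighm and Ighd were lower in KI MemB (log2 fold changes of -2.46 and -1.35, adjusted p = 4.81e-11 and 9.39e-05, edgeR). Fcer2a and Cr2, also B2 markers, had the opposite order, without overlap and not called, at 66.9, 26.9 and 69.8 CPM in control MemB and 76.7, 151 and 135 in KI MemB for Fcer2a, and with means of 44.3 and 81 CPM for Cr2 (log2 fold changes of 1.15 and 0.87, adjusted p = 0.116 and 0.349, edgeR).

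**Figure D4:**
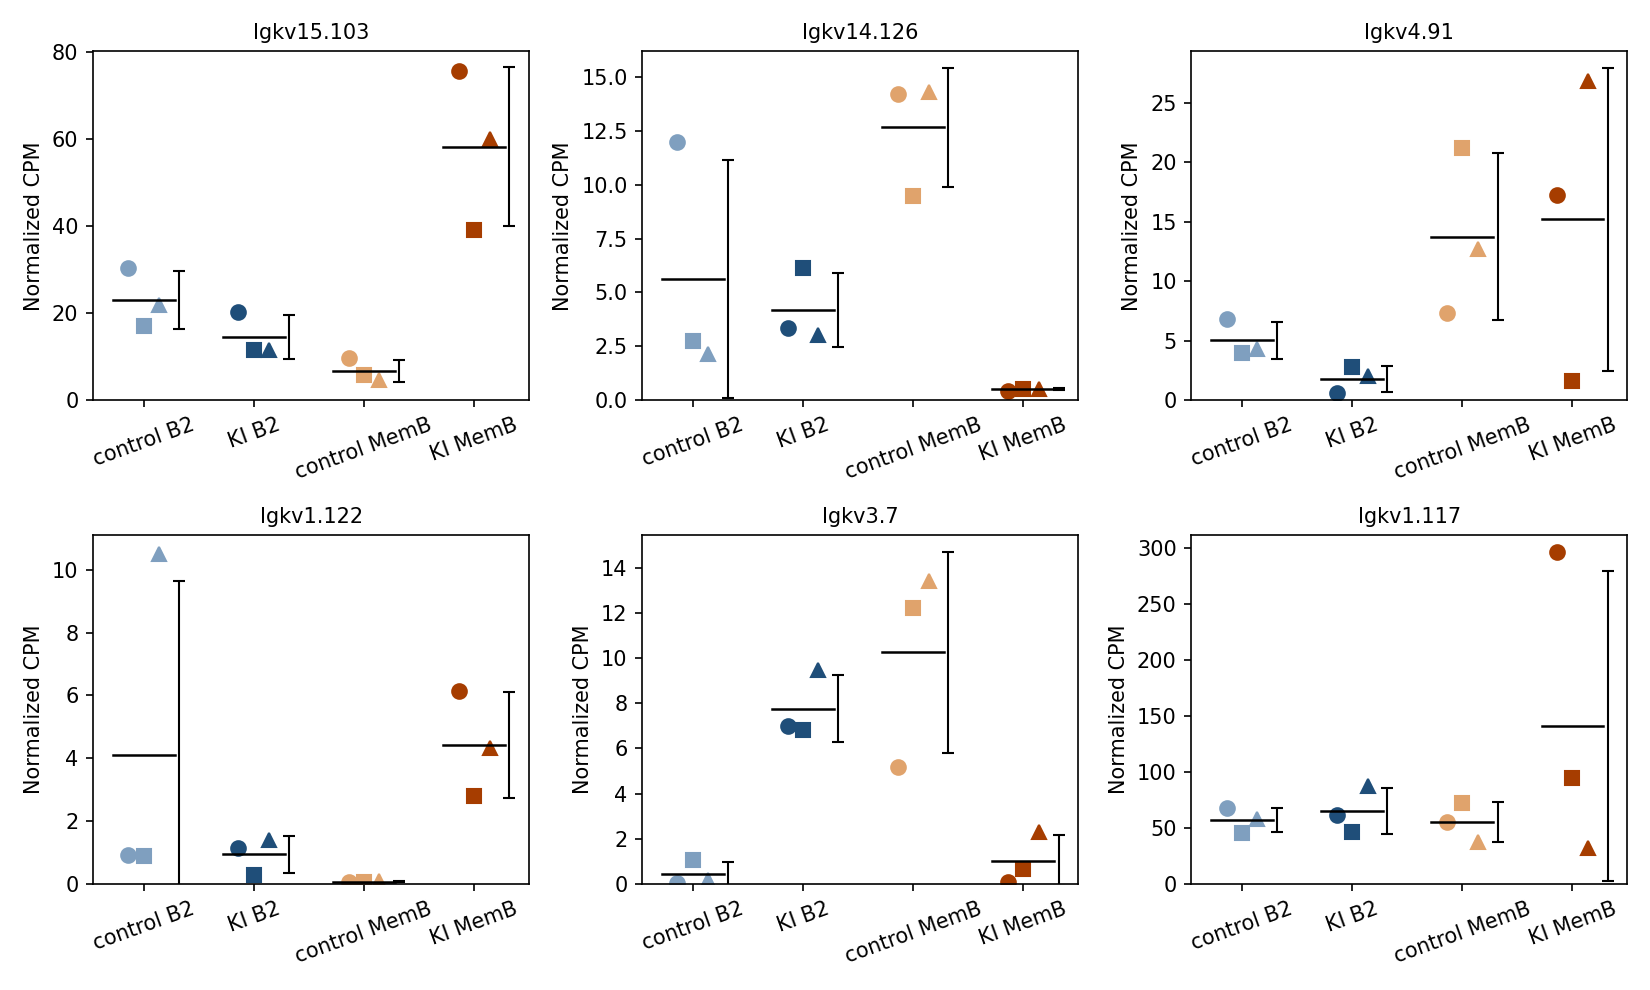
Normalized CPM (vertical axes, linear, a scale for each gene) of 6 Igkv genes in each library. Points are libraries (circle, square and triangle for replicates 1, 2 and 3), lines are group means and bars are the SD. Igkv15.103 lies between 39.1 and 75.6 in KI MemB and between 4.71 and 9.60 in control MemB, while Igkv14.126 lies at 0.521 or less in KI MemB and at 9.47 or more in control MemB.

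KI and control MemB libraries did not overlap for 14 of the 82 members tested (17.1%), Igkv15.103 among them, where 12.1% of all genes tested had no overlap. KI was higher for 4 of them (4.88%, against 6.01% of all genes) and lower for 10 (12.2%, against 6.08%). The genes described next are outside the rule by which genes were named and were chosen after their values were seen. Igkv14.126 and Igkv4.91 are V genes known to pair with the heavy chain V genes Ighv11.2 and Ighv12.3 in receptors of peritoneal B-1 cells that bind phosphatidylcholine. Igkv14.126 had 14.2, 9.47 and 14.3 CPM in control MemB and 0.443, 0.521 and 0.521 in KI MemB. Its levels in B2 ran from 2.15 to 12 CPM, with overlap between genotypes. The log2 fold change in MemB was -4.66 (standard error 1.34, adjusted p = 0.196, edgeR), and DESeq2, run on the same counts, called the gene.

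Ighv11.2 had 83.9, 50.2 and 25.1 CPM in control MemB and 1.30, 1.13 and 0.782 in KI MemB, and its log2 fold change of -5.63 passed the test (adjusted p = 0.000222, edgeR). Igkv4.91, by contrast, had 7.30, 21.2 and 12.7 CPM in control MemB and 17.2, 1.56 and 26.8 in KI MemB, with a log2 fold change of 0.14 (adjusted p = 0.986, edgeR). Ighv12.3 had 82.8, 122 and 40.6 CPM in control MemB and 1.23, 7.05 and 17.3 in KI MemB (log2 fold change -3.26, adjusted p = 0.0512, edgeR). With 1 library left out, Ighv12.3 was called in all but 5 of 12 fits, and its adjusted p was 0.288 at most (edgeR). For Ighv12.3 and Igkv4.91, which are paired in such receptors, the KI MemB libraries lay below all control MemB libraries for the heavy chain gene and overlapped them for the light chain gene. The 5 B-1 cell markers summed to 606 to 745 CPM in control MemB, 508 to 607 in KI MemB and 133 to 229 in B2. Between KI and control MemB edgeR called 0 of the 5 and DESeq2 called 1. There 1 had an unadjusted p below 0.05, against 11.1% of all genes. Within the list, Cd5 had 8.72 CPM or more in each control MemB library and 0.17, 1.96 and 0.13 in KI MemB (adjusted p = 0.349, edgeR), and Spn had 132, 138 and 125 against 84.9, 104 and 100 (adjusted p = 0.753), both without overlap. Bhlhe41 was also lower without overlap, with 355, 265 and 362 CPM in control MemB and 226, 261 and 252 in KI MemB. Itgam had the higher mean in KI MemB, 78.1 ± 29.3 CPM (SD, n = 3) against 52.7 ± 37.8 (SD, n = 3), and Zbtb32 had means of 146 in KI and 141 in control MemB. Cd5 and Spn were chosen after their values were seen. Of the 5, Spn, Bhlhe41 and Zbtb32 were called higher in MemB than in B2 (log2 fold changes of 2.10, 1.89 and 1.40, adjusted p = 5.37e-05, 1.01e-08 and 0.00242, edgeR). The paper gates peritoneal B1 as IgD-IgM+, while MemB were sorted as IgD-IgM-. The part of B-1 cells in these values was not tested.

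Igkv1.122 had 2.06, 2.06 and 3.08 counts in control MemB and 179.71, 91.3 and 132.73 in KI MemB. It was also present in B2, with 343.13 counts in control replicate 3 and 11.28 to 55.44 in the other 5 libraries. The adjusted p between KI and control MemB was 0.278 (edgeR). Igkv4.90 had 1 count in each control MemB library and 67, 47 and 173 in KI MemB (adjusted p = 0.34, edgeR). Of the genes with non-overlapping groups in the other direction, Igkv6.20 had 11.3, 8.24 and 3.51 CPM in control MemB and 1.06, 1.16 and 0.977 in KI MemB (log2 fold change -2.84, adjusted p = 0.424, edgeR).

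In B2, no light chain gene passed edgeR's test between KI and control, where 0.0066% of all genes were called. DESeq2 called 1 of 103 members, Igkv3.7, and its share over all genes is not given here. At an unadjusted p below 0.05, edgeR had 5 of 82 members (6.1%), against 5.74% of all genes. The libraries of KI and control B2 did not overlap for 11 members (13.4%), against 10.2% of all genes. Igkv3.7 had 0.00686%, 0.178% and 0.0193% of V counts in control B2 and 1.40%, 1.21% and 1.5% in KI B2. Of the 19 V families, 2 had KI and control B2 libraries without overlap, Igkv3 and Igkv10, and 3 had such MemB libraries, Igkv4, Igkv15 and Iglv2. Over all genes tested, groups did not overlap for 10.2% in B2 and 12.1% in MemB. These families, and Igkv3.10 below, were picked after their values were seen. The Igkv4 family took 12.9%, 9.94% and 8.45% in control MemB and at most 8.25% in KI MemB. The Igkv3 family as a whole took 3.94%, 4.94% and 2.85% in control B2 and 8.77%, 13.1% and 9.23% in KI B2, without overlap. Igkv3.10, another member of the family, had 0.687% to 1.98% in control B2 and 2.62% to 3.53% in KI B2. The Igkv10 family had the opposite order, with 6.32% to 8.20% in control B2 and 4.59% to 5.43% in KI B2.

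The difference of the KI effect between MemB and B2 gave no call among the 82 members by edgeR, where 0.066% of all genes were called. DESeq2 called 4 of 103 members, and its share over all genes is not given here. By edgeR, 7 of the 82 (8.54%) had an unadjusted p below 0.05, against 8.49% of all genes. Between MemB and B2, edgeR called none of the 82, where it called 1.01% of all genes. DESeq2 called 2 of 103, Igkv4.91 and Igkv8.30, and its share over all genes is not given here. At an unadjusted p below 0.05 there were 5 members (6.1%) by edgeR, against 12.9% of all genes. No member had MemB libraries that all lay on one side of the B2 libraries, which 1.26% of all genes had. Igkv4.91 had 0.607 to 6.79 CPM in B2 and 1.56 to 26.8 in MemB, with overlap (log2 fold change 2.27, adjusted p = 0.151, edgeR).

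Usage was uneven along the kappa locus. With the 95 Igkv members ordered by distance from the first J segment and cut into near, middle and far sets of 32, 31 and 32, the far set held 63.4% of Igkv counts on average, the middle set 10.4% and the near set 26.3%. The far set, which begins 1819.3 kb from the J segment, holds 8 of the 10 leading genes. Its share was 65.7%, 66.4% and 66.9% in control B2 and 55.5%, 54.8% and 61.7% in KI B2. In MemB it was 53.0%, 62.9% and 60.8% in control and 76.3%, 62.6% and 73.9% in KI. In the far set the KI libraries were thus lower in B2, without overlap, and in MemB the groups overlapped. The near set held 18.8% to 26.3% in control B2 and 30.7% to 35.9% in KI B2. In MemB it held 27.1% to 31.1% in control and 17.3% to 27.0% in KI, so the near set did not overlap in either cell type, though only narrowly in MemB. Over all genes tested, groups did not overlap for 10.2% in B2 and 12.1% in MemB. The 37 Igkv members on the same strand as Igkc, which join by deletion, held 56.7% to 60.4% in control MemB and 63.9% to 69.3% in KI MemB. In B2 they held 61.0% to 64.8% in control and 61.6% to 66.0% in KI, with overlap. The other 58 join by inversion. Igkv15.103, Igkv1.117 and Igkv1.110 are all in the far set and on the same strand as Igkc, so these shares and those of the single genes are not independent. No test was run on the sets by distance or by strand.

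**Figure D5:**
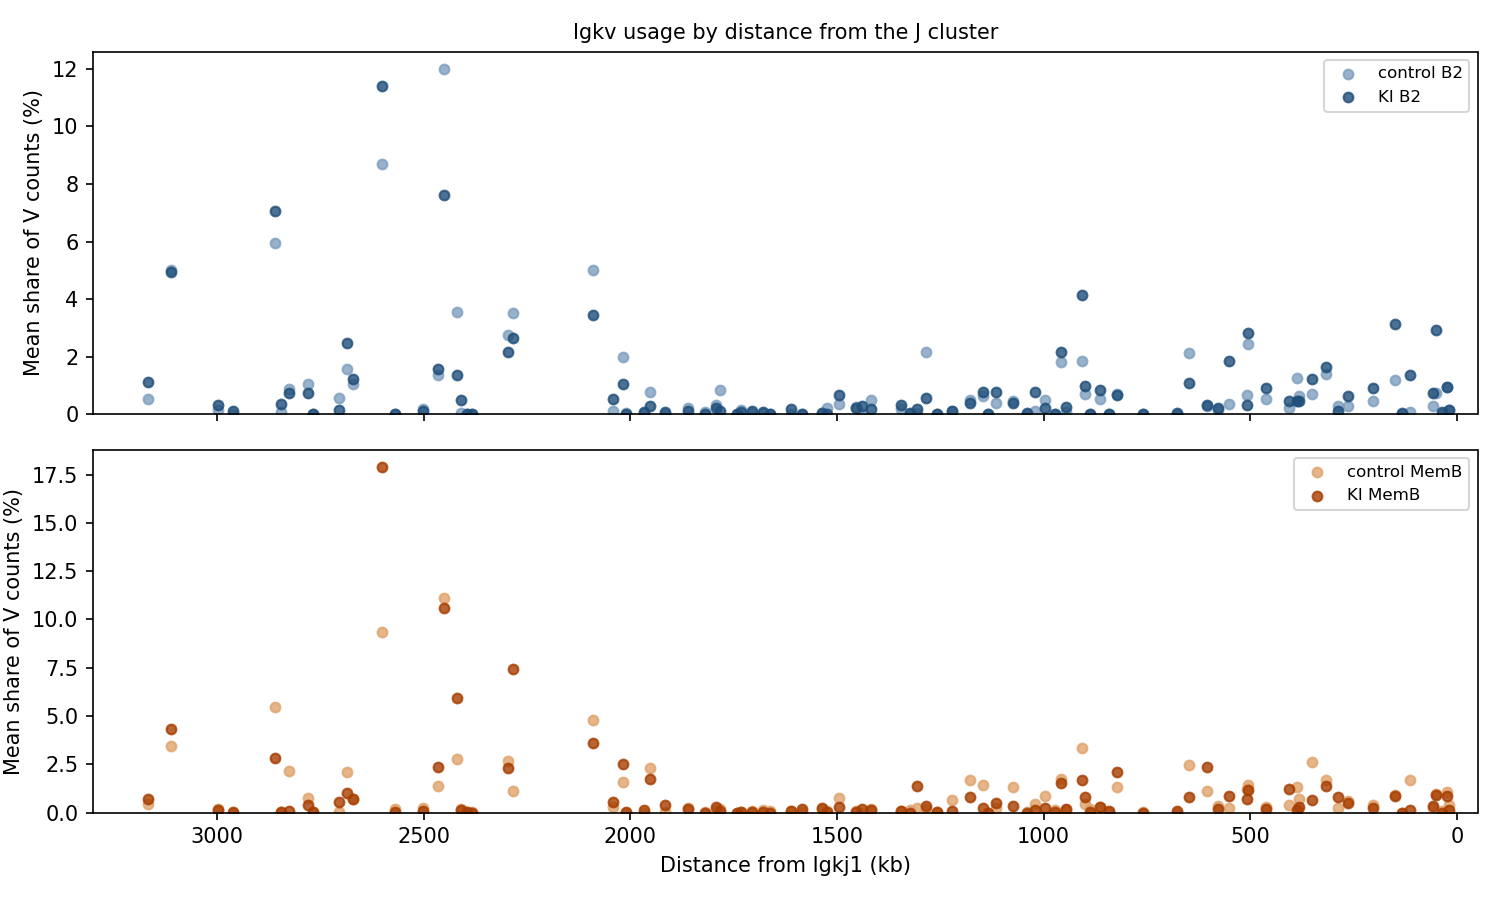
Mean share of light chain V counts (vertical axes, %) of each of the 95 Igkv members against its distance from the first kappa J segment (horizontal axis, kb, falling from left to right), for B2 above and MemB below. Points are group means of 3 libraries, light for control and dark for KI. The highest points, Igkv1.117 and Igkv1.110, lie at 2600.7 and 2451.3 kb.

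Genes that act on light chains or are made with them were counted for context. Of the genes of rearrangement and receptor editing, such as Rag1 and Xrcc5, 8 of 10 were tested and 0 were called by edgeR in any comparison. The same held for the 11 transcription factors of the light chain loci, among them Irf4 and Pax5, and for the 12 genes of antibody assembly in the ER, among them Hspa5 and Mzb1. Between KI and control MemB, 1 of the 8, 3 of the 11 and 0 of the 12 had an unadjusted p below 0.05. Over all genes the share was 11.1%, and DESeq2 called 1, 0 and 0 in the lists. Between MemB and B2 the unadjusted count was 1, 5 and 5, where the share over all genes was 12.9%. DESeq2 called 1, 0 and 1 there. Rag1, a subunit of the recombinase, had 19.6 and 33 CPM in control MemB replicates 1 and 2 and 0.0766 to 0.491 in the other libraries. Igll1, part of the surrogate light chain of precursor B cells, had 9.8 and 8.77 CPM in the same 2 libraries and at most 1.2 elsewhere. Neither was called by edgeR between KI and control MemB (adjusted p = 0.189 and 0.328), and DESeq2 called 1 of the 2 surrogate light chain genes tested. The part of these 2 libraries' cells in the light chain values was not tested. The median log2 fold changes of the 3 lists between KI and control MemB were -0.39 for rearrangement, 0.01 for the transcription factors and 0.22 for assembly, beside -0.03 over all genes. In a list of 9 genes made of heavy chain constant genes and Jchain, 2 were called higher and 2 lower in KI MemB, which are the 4 genes given above. Between MemB and B2, 6 of the 9 were called higher in MemB, where 0.64% of all genes were. They were Ighg1, Ighg2b, Ighg2c, Ighg3, Igha and Jchain, with log2 fold changes of 3.24 (Jchain) to 5.68 (Ighg2c). As MemB were sorted as IgD-IgM- and B2 as IgD+IgM+, the calls of the constant genes are not independent of the sort.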

How the data were processed

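Per the labels, reads were trimmed with cutadapt 4.5, aligned to mm39 with STAR 2.7.11a and counted with RSEM 1.3.3, and FastQC 0.12.1 was used. Expected counts from RSEM, one value a gene and library, were deposited without normalization; these estimated counts share reads between similar genes, and 32.2% of non-zero values (70.5% for members) were not whole. Shares and ratios were computed from them with pandas 2.3.3, and they were rounded for edgeR 4.0.16 (R 4.3.3).

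edgeR was fitted with TMM, filterByExpr at a minimum count of 10 and robust quasi-likelihood over 15148 genes, with 4 group means and Benjamini-Hochberg adjustment; MemB against B2 averaged the genotypes. A standard error is the log2 fold change over the square root of F. The fit was tested on simulated data. Coordinates, RSS and promoters are from GENCODE M39 and GRCm39; identities are from pairwise alignments in Biopython 1.88. Symbols are those of the table, which has dots where GENCODE has hyphens. Members and lists were chosen with earlier results of these data known. Named were all constant and lambda V members, the 10 Igkv with the highest mean share, called members, the 2 nearest the minimum on each side, and Jchain, Ighm, Ighd, Igha and up to 4 called genes a list. As amplified reads can stem from the same molecule, depth bounds counting error alone. Alternatives were DESeq2 1.42.0, other normalizations and filters, other ratio and diversity measures, replicate blocks and each library left out.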

Additional observations from a re-analysis of the deposited data

Results flagged for a closer look

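Igkv3.7 was singled out because its KI and control libraries did not overlap in either cell type and lay in opposite order. In MemB its log2 fold change was -3.31, from 5.17, 12.2 and 13.4 CPM in control to 0.102, 0.674 and 2.31 in KI. In B2 it was 4.20, from 0.0336, 1.07 and 0.153 CPM in control to 7, 6.83 and 9.47 in KI. The KI effects in the 2 cell types differed by -7.51, which edgeR's interaction term did not call (standard error 2.10, adjusted p = 0.296) and DESeq2 did. Igkv3.7 and Igkv3.12 were 96.8% identical, and Igkv3.12 did not show this order, with 0.179% to 0.892% of V counts in control B2, 0.278% to 1.96% in KI B2, 0.233% to 0.636% in control MemB and 0.0192% to 0.523% in KI MemB. Over 10 sets of 6 B2 or 6 MemB libraries on 5 measures, Dixon's test found no library that stood apart. Each set pooled control and KI libraries, so a library that stood apart only from its own group could be missed.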

How the results depend on the processing

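DESeq2, with 103 members, called 6 between KI and control MemB: Igkv1.122, Igkv14.126, Igkv15.103, Igkv3.7, Igkv4.90 and Igkv6.20. It called 1 in B2, 4 for the difference of the KI effect and 2 between MemB and B2. The share of all genes that DESeq2 called is not given here, so these counts cannot be set against it. Without the filter on low counts, edgeR called 1 member, Igkv15.103, for the difference of the KI effect. The cause was not tested. Leaving out 1 library gave 0 to 1 members in KI against control MemB, the call being that of Igkv15.103, and 0 in the other comparisons. The KI minus control difference in the log2 ratio of kappa to lambda ranged from 0.56 to 0.81 in MemB and from 0.15 to 0.51 in B2. The difference in that ratio between MemB and B2 ranged from -0.02 to 0.19. It turned sign without KI MemB replicate 1 (-0.02) and without control B2 replicate 1 (-0.01). The difference in the effective number of V genes ranged from -12.83 to -6.73 in MemB, from 3.85 to 7.24 in B2 and from -5.92 to -1.94 between MemB and B2. Correlations of same-numbered libraries lay between -0.014 and 0.034 over all genes and between -0.261 and 0.302 over light chain genes. Libraries of different numbers were not correlated for comparison. These values therefore cannot show whether same-numbered libraries came from the same mouse, and the labels do not say. With a replicate block the calls were 1 in MemB and 0 elsewhere, and Igkv15.103 had a log2 fold change of 3.14 (adjusted p = 0.0131, edgeR). With Iglc1 alone as lambda, the log2 ratio differed by 0.21 in MemB, 0.41 in B2 and 0.00 between MemB and B2, and with V genes by 0.76, 0.81 and 0.62. Without the leading V gene, the effective number differed by -4.48, 8.09 and -2.11. RLE normalization changed no edgeR call. Libraries thinned to 15596 V counts gave differences in the effective number of -9.53, 5.64 and -3.81. With 3 libraries a group, exact tests cannot pass 0.05, and shares of near-identical genes depend on how reads were shared between them.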

Other observations

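Members too sparse to test were often found in 1 library. Of these 21, 10 had at least 80% of their counts in a single library. Igkv12.42 had 114 counts in control MemB replicate 2, 12 in KI MemB replicate 3 and 2 in control B2 replicate 3. Igkv2.116 had 95 counts in control MemB replicate 1 and at most 3 elsewhere, Igkv1.132 had 87 in KI B2 replicate 2 and at most 9 elsewhere, and Igkv13.76 had 87 in KI MemB replicate 2 and at most 8 elsewhere. These genes were chosen after their values were seen.

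V usage was compared between libraries as the percentage shared, the sum over V genes of the smaller of the shares. It was 71.0% to 72.2% among KI B2 libraries, 62.8% to 71.9% among control B2, 58.5% to 69.6% among control MemB and 51.3% to 65.3% among KI MemB. B2 and MemB libraries of the same genotype and number shared 52.6% to 70.7%, and those of the same genotype and other numbers 49.9% to 74.0%.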
